A study of Homo sapiens with 8 samples.

Results

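The NRF2 antioxidant pathway was described here through 9 genes chosen by symbol: NFE2L2, KEAP1, GCLC, GCLM, TXNRD1, NQO1, HMOX1, SRXN1 and AKR1C3. All 9 were present among the 14668 gene symbols of the count table. They were measured in T3M4, an established human pancreatic cancer cell line, in cells labelled sgMETTL13, for a guide RNA against METTL13, and in cells labelled sgControl. All cells had 18 h of serum starvation followed by 2 h in 10% FBS, so every value describes serum-stimulated cells. Poly(A) RNA-seq gave mRNA levels, and ribosome profiling gave the mRNA fragments protected by ribosomes (footprints). Each guide had 2 libraries per assay, 8 libraries in all. The labels name no nuclease, guide number, pool or clone, and nothing in them separates the replicates by culture. The p-values therefore measure the spread between these libraries, which may be technical.

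NRF2, encoded by NFE2L2, is the transcription factor that turns on antioxidant and detoxification genes. In unstressed cells the adaptor KEAP1 hands NRF2 to a cullin ubiquitin ligase for degradation, and oxidants or electrophiles that modify KEAP1 let NRF2 accumulate. NRF2 then pairs with a small MAF protein and binds antioxidant response elements in its target genes, which in pancreatic cancer cells act downstream of growth signalling as well as of stress. METTL13 methylates the translation elongation factor eEF1A, and the series asked how footprints and mRNA differ when METTL13 is targeted.

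Library totals ran from 39899139 to 48353722 counts in sgMETTL13 RNA and from 20860953 to 36436106 counts in sgControl RNA. Footprint totals were 8916807 and 9837253 counts in sgMETTL13 and 6063885 and 8181707 counts in sgControl. The targeted gene METTL13 had 20.1 and 26.2 footprint CPM (the count scaled to its library's total, with TMM factors) in sgMETTL13, against 65.2 and 57.8 CPM in sgControl. Its mRNA had 25.2 and 35.1 CPM in sgMETTL13 and 89.7 and 71.4 CPM in sgControl. The 6 epithelial markers, 4 keratins, EPCAM and E-cadherin, summed to 2863 to 4176 CPM of mRNA in sgMETTL13 and 3613 to 4144 CPM in sgControl, while the 2 leukocyte markers analysed summed to at most 0.148 CPM in sgMETTL13 and 0.135 CPM in sgControl. The 5 fibroblast markers analysed summed to 23.7 to 32.9 CPM of mRNA in sgMETTL13 and 27.2 to 32.9 CPM in sgControl. Most of that was COL1A1 alone, at 18.7 and 31.9 CPM in sgMETTL13 and 25.5 and 31.1 CPM in sgControl. The next highest, LUM, had at most 4.82 CPM of mRNA in a library. The 4 endothelial markers summed to at most 1.10 CPM in sgMETTL13 and 1.59 CPM in sgControl.

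In footprints 3 of the 9 genes rose in sgMETTL13 and none fell: GCLM, AKR1C3 and TXNRD1. These encode a subunit of the glutathione synthesis enzyme, a steroid- and prostaglandin-reducing aldo-keto reductase and a thioredoxin reductase. Of 10714 genes tested, 21% passed the same threshold, with 8.94% that rose and 12% that fell (edgeR's quasi-likelihood test, Benjamini-Hochberg adjusted p below 0.05). The median log2 fold change of the 9 genes was 0.18, beside 0.01 over all genes tested. The 9 genes were chosen with earlier results of these data known, so setting them beside all genes does not test the pathway. No mRNA of the 9 passed the test, and none of 12468 genes tested did (0%). For footprints per mRNA none of the 9 and none of 10446 genes tested passed (0%). The mRNA of the targeted gene METTL13, at -1.42 (SE 0.406), did not pass, so a missing call does not show an unchanged mRNA. In 1 edgeR fit over all 8 libraries, footprints share the wider spread of the mRNA libraries. There GCLM, AKR1C3 and TXNRD1 did not pass in footprints (adjusted p = 0.544, 0.502 and 0.623). In that fit 0 of all 10446 genes tested passed. Because the values come from bulk lysates, a change in some cells and a smaller change in all cells cannot be told apart.

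**Figure D1:**
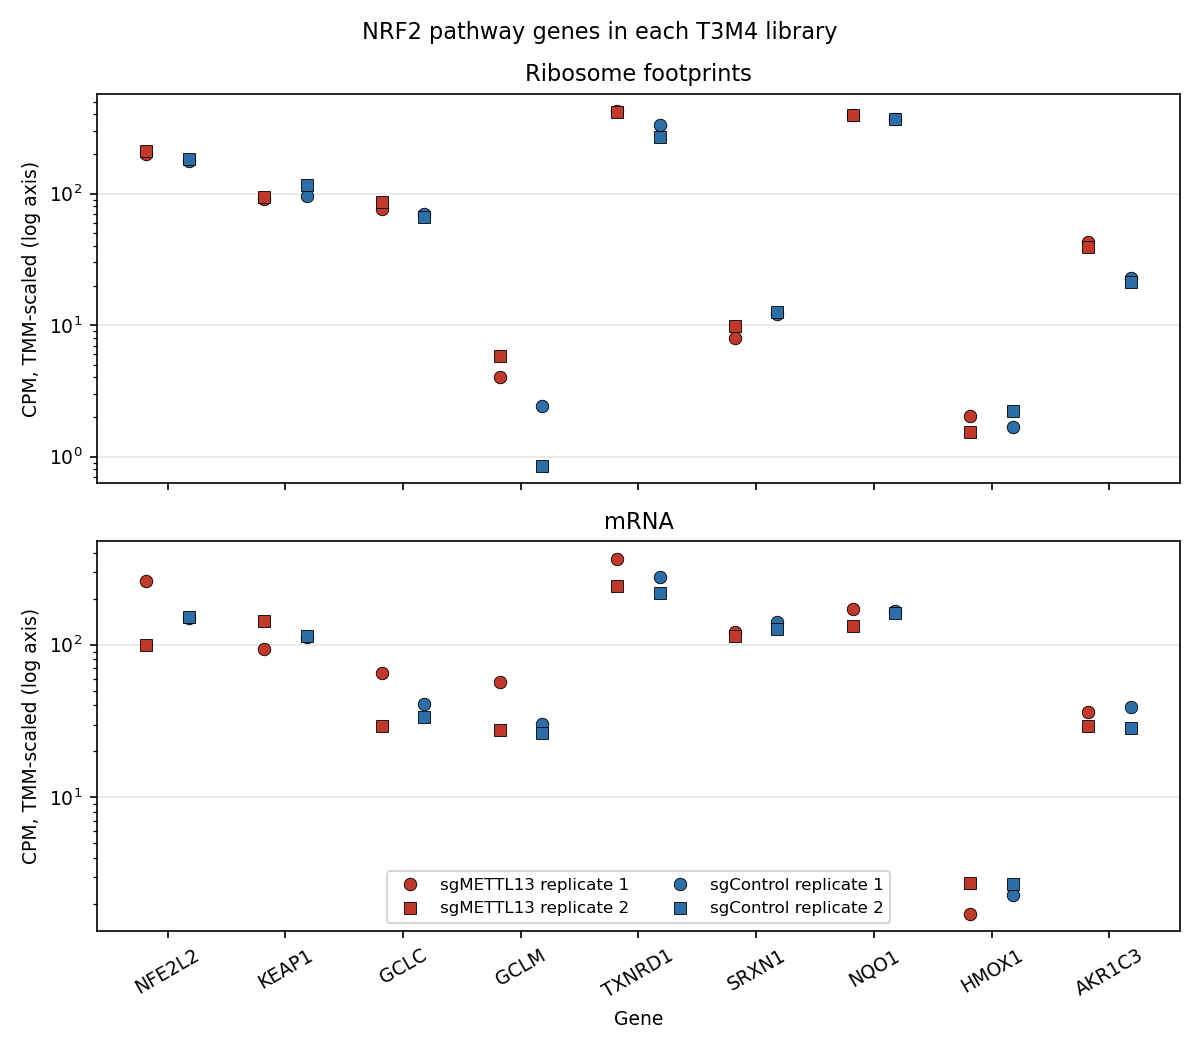
Footprint CPM (top) and mRNA CPM (bottom) of the 9 genes on log axes, with the 2 sgMETTL13 libraries (red) left of the 2 sgControl libraries (blue) for each gene. AKR1C3 footprints stood at 43.2 and 39.4 CPM in sgMETTL13 against 22.7 and 21.2 CPM in sgControl, and NFE2L2 mRNA spread from 99.7 to 259.8 CPM within sgMETTL13. CPM is not scaled to gene length, so heights compare libraries within a gene and not genes with each other.

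NFE2L2 lies on chromosome 2 at 177230303 to 177264727 (GRCh38). Its footprints numbered 199 and 209 CPM in sgMETTL13 and 176 and 184 CPM in sgControl. Both sgMETTL13 libraries were above both sgControl libraries, but the log2 fold change of 0.18 (SE 0.126) did not pass (edgeR adjusted p = 0.328). An arrangement with every sgMETTL13 library above every sgControl library was found for 32% of all genes tested in footprints, so it does not set NFE2L2 apart.

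NFE2L2 mRNA had 259.8 and 99.7 CPM in sgMETTL13 and 150.6 and 152 CPM in sgControl. The sgControl libraries were close to each other, while the sgMETTL13 libraries lay 1 above and 1 below them. The fitted mRNA log2 fold change was 0.25 (SE 0.437). It turned to -0.53 without sgMETTL13 RNA replicate 1 and was 0.78 without sgMETTL13 RNA replicate 2, and passed in neither (edgeR adjusted p = 0.787 and 0.0564).

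KEAP1, the adaptor that holds NRF2 in check, lies on chromosome 19 at 10486125 to 10503356. Its footprints numbered 91.6 and 94.7 CPM in sgMETTL13 and 94.97 and 116 CPM in sgControl. The groups were next to each other without overlapping, and the log2 fold change was -0.18 (SE 0.139, edgeR adjusted p = 0.39). It was -0.03 without sgControl replicate 2 and -0.32 without sgControl replicate 1. KEAP1 mRNA had 93.7 and 142 CPM in sgMETTL13 and 113 and 114 CPM in sgControl, again with the sgMETTL13 libraries on either side of the controls. In KEAP1 it was sgMETTL13 RNA replicate 2 that was the higher one, the opposite of NFE2L2. The mRNA log2 fold change was 0.06 (SE 0.365) and became -0.27 without sgMETTL13 RNA replicate 2.

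Glutathione, the main small antioxidant of the cell, is made in a rate-limiting step by glutamate-cysteine ligase. GCLC encodes its catalytic subunit and GCLM the modifier subunit that makes the enzyme more active. The subunits lie on chromosome 6 at 53497341 to 53545101 and on chromosome 1 at 93885199 to 93909430.

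GCLM was the gene among the 9 with the largest footprint fold change and among the fewest reads. Its footprint counts were 40 and 53 in sgMETTL13 and 20 and 5 in sgControl, where exact Poisson 95% intervals, which cover counting error only, ran from 28.6 to 54.5 and 39.7 to 69.3 in sgMETTL13 and from 12.2 to 30.9 and 1.62 to 11.7 in sgControl. In CPM these were 4.06 and 5.82 in sgMETTL13 and 2.42 and 0.855 in sgControl. Both sgMETTL13 libraries were higher, and on the log2(CPM + 1) scale the sgControl libraries differed by 0.88 and the sgMETTL13 libraries by -0.43 (replicate 1 minus replicate 2). The log2 fold change was 1.48 (SE 0.373, edgeR adjusted p = 0.0052). It lost its call without sgControl replicate 2 (1.01, adjusted p = 0.111) or sgMETTL13 replicate 2 (1.21, adjusted p = 0.0796), was 2.50 without sgControl replicate 1, and missed the threshold with DESeq2 (adjusted p = 0.0553).

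GCLM mRNA had 57.0 and 27.8 CPM in sgMETTL13 and 30.2 and 26.4 CPM in sgControl. Only sgMETTL13 RNA replicate 1 lay above both controls. The mRNA log2 fold change was 0.58 (SE 0.456, edgeR adjusted p = 1). When sgMETTL13 RNA replicate 2 was left out it passed at 1.01 (adjusted p = 0.00247), in a fit where 19.9% of 12614 genes passed and 18.7% were higher. When replicate 1 was left out instead it was 0.04, and 0.214% of 12617 genes passed.

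GCLC, the catalytic partner, had 76.5 and 86.9 footprint CPM in sgMETTL13 and 70.4 and 66.7 CPM in sgControl. The groups did not overlap, and the log2 fold change of 0.25 (SE 0.141) did not pass (edgeR adjusted p = 0.208). Its mRNA had 65.7 and 29.4 CPM in sgMETTL13 and 40.8 and 33.5 CPM in sgControl, with the sgMETTL13 libraries above and below the controls as in NFE2L2. The mRNA log2 fold change was 0.36 (SE 0.462). It was 0.82 and passed without sgMETTL13 RNA replicate 2 (edgeR adjusted p = 0.0211), and turned to -0.27 without sgMETTL13 RNA replicate 1.

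The core letters of the antioxidant response element, TGACNNNGC, were searched on both strands in the RefSeq windows (GRCh38.p14) that run from 250 bases before to 50 bases after an annotated start. Among the 9 genes, 8 had a window, 12 windows in all, and 4 of these windows held a match, in GCLM, TXNRD1 and KEAP1. Over all 35116 windows 13.3% held a match. The windows of GCLM and TXNRD1 shown here were picked by their footprint rise, with the matched letters in capitals. The KEAP1 window with matches is not printed, and KEAP1 footprints read -0.18 and did not pass. Whether a match goes with a footprint change was not tested.
GCLM, chr1:93909381-93909680, minus strand: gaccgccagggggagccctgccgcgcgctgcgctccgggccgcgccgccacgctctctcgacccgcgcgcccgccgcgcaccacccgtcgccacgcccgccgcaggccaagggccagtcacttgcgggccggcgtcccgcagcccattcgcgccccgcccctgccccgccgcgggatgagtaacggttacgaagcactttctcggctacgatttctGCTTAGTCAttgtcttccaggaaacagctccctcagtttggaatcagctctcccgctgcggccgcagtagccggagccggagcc
TXNRD1, first start, chr12:104215529-104215828, plus strand: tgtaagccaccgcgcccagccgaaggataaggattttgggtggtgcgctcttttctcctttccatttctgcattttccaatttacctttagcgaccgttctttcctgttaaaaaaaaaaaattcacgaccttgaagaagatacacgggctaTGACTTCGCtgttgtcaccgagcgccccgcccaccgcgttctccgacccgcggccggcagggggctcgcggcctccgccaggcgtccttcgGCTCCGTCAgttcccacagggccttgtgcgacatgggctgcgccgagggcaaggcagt
TXNRD1, second start, chr12:104286782-104287081, plus strand: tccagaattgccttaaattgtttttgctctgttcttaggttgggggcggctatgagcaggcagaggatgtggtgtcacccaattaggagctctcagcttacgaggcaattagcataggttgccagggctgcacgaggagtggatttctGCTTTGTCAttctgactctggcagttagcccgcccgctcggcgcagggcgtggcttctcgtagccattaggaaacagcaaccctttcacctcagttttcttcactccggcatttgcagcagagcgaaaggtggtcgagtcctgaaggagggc
In GCLM the match stood on the other strand with its first printed base at position -34 from the start, and reads GCTTAGTCA. The same 9 letters occurred at -31 in a window of KEAP1 that also held TGACACGGC at -54. TXNRD1 had matches beginning at -99 and -8 before its first start and at -102 before its second, and none of the matches overlapped each other. Neither window of AKR1C3, whose footprints also rose, held these letters. Sequence outside the windows was not searched, so a window without a match does not show that a gene lacks the element. A match describes the letters in the window and is not a measurement of binding.

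Thioredoxin reductase, encoded by TXNRD1 on chromosome 12 at 104215779 to 104350307, uses NADPH to keep thioredoxin reduced. It is a selenoprotein, whose selenocysteine is inserted at a recoded stop codon. TXNRD1 had 422 and 414 footprint CPM in sgMETTL13 and 329.8 and 267 CPM in sgControl. Both sgMETTL13 libraries were higher and nearly equal, while the sgControl libraries were spread wider. The log2 fold change was 0.49 (SE 0.127, edgeR adjusted p = 0.00692). The call was lost without sgControl replicate 2 (0.34, adjusted p = 0.128), without sgMETTL13 replicate 1 (0.47, adjusted p = 0.0644) and without sgMETTL13 replicate 2 (0.50, adjusted p = 0.0676).

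TXNRD1 mRNA had 363 and 242 CPM in sgMETTL13 and 277 and 218 CPM in sgControl. The groups overlapped, and replicate 1 was the higher library in each. The mRNA log2 fold change was 0.29 (SE 0.358, edgeR adjusted p = 1), and it read 0.035 without sgMETTL13 RNA replicate 1 and 0.55 without replicate 2.

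SRXN1, on chromosome 20 at 646615 to 653200, encodes sulfiredoxin, which repairs over-oxidised peroxiredoxins. It had 8.03 and 9.88 footprint CPM in sgMETTL13 and 12.2 and 12.5 CPM in sgControl. Both sgMETTL13 libraries were lower, as in KEAP1. This arrangement was found for 32% of all genes tested in footprints, so it does not set SRXN1 apart. HMOX1 groups overlapped, and in the remaining NRF2 targets among the 9 both sgMETTL13 libraries were higher. The log2 fold change was -0.46 (SE 0.222). Its unadjusted p of 0.0448 was below a level that 34.6% of all genes were under, and its edgeR adjusted p was 0.133. SRXN1 mRNA had 121 and 114 CPM in sgMETTL13 and 141 and 127 CPM in sgControl, a log2 fold change of -0.19 (SE 0.342). SRXN1 was the single gene of the 9 whose mRNA groups did not overlap, where 6.84% of all genes had mRNA that was lower in this way and 5.11% had mRNA that was higher.

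NQO1, on chromosome 16 at 69709401 to 69726560, encodes the quinone reductase often used as a readout of NRF2 activity. It had 392.1 and 393.3 footprint CPM in sgMETTL13 and 365.5 and 370.02 CPM in sgControl. Replicates were close in both groups, which did not overlap. The log2 fold change was 0.09 (SE 0.120, edgeR adjusted p = 0.614) and stayed between 0.087 and 0.098 whichever footprint library was left out. NQO1 mRNA had 170.2 and 134 CPM in sgMETTL13 and 166 and 162 CPM in sgControl, a log2 fold change of -0.11 (SE 0.343). That mRNA value was 0.05 without sgMETTL13 RNA replicate 2.

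HMOX1, on chromosome 22 at 35381096 to 35394207, encodes the inducible heme oxygenase that breaks heme down to biliverdin, iron and carbon monoxide. It was scarce in these cells. Its footprint counts were 20 and 14 in sgMETTL13 and 14 and 13 in sgControl, which were 2.03 and 1.54 CPM in sgMETTL13 and 1.69 and 2.22 CPM in sgControl. The groups overlapped, and the log2 fold change of -0.10 had an SE of 0.393 (edgeR adjusted p = 0.888). Its sign changed when 1 replicate 2 library was left out, to 0.08 without that of sgControl and 0.08 without that of sgMETTL13. At this depth a difference larger than its SE could also go undetected, as SRXN1 did not pass at -0.46 (SE 0.222). HMOX1 mRNA had 1.73 and 2.74 CPM in sgMETTL13 and 2.29 and 2.70 CPM in sgControl, a log2 fold change of -0.15 (SE 0.457).

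AKR1C3, on chromosome 10 at 5048781 to 5107686, had 43.2 and 39.4 footprint CPM in sgMETTL13 and 22.7 and 21.2 CPM in sgControl. The replicates were close and the groups far apart. The log2 fold change was 0.91 (SE 0.165, edgeR adjusted p = 0.000294), and it ranged from 0.83 to 0.97 and kept its call with any 1 of the 4 footprint libraries left out. In each such fit 1 guide has a single library, so the spread comes from the other guide's pair and the single library is assumed to vary like it. AKR1C3 mRNA had 36.1 and 29.3 CPM in sgMETTL13 and 39.3 and 28.4 CPM in sgControl. Those groups overlapped, and the mRNA log2 fold change was -0.05 (SE 0.418).

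AKR1C3 belongs to a cluster of closely related aldo-keto reductase genes on chromosome 10, and how reads that match several of them were counted is not given in the sources used here. AKR1C1 had 33.0 and 36.1 footprint CPM in sgMETTL13 and 34.0 and 32.1 CPM in sgControl, a log2 fold change of 0.06 (SE 0.159). AKR1C2 had 82.8 and 79.5 CPM in sgMETTL13 and 79.5 and 64.6 CPM in sgControl, a log2 fold change of 0.17 (SE 0.143). Neither passed (edgeR adjusted p = 0.824 and 0.435), and whether AKR1C3 differed from them was not tested. AKR1C4 was below the expression filter.

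**Figure D2:**
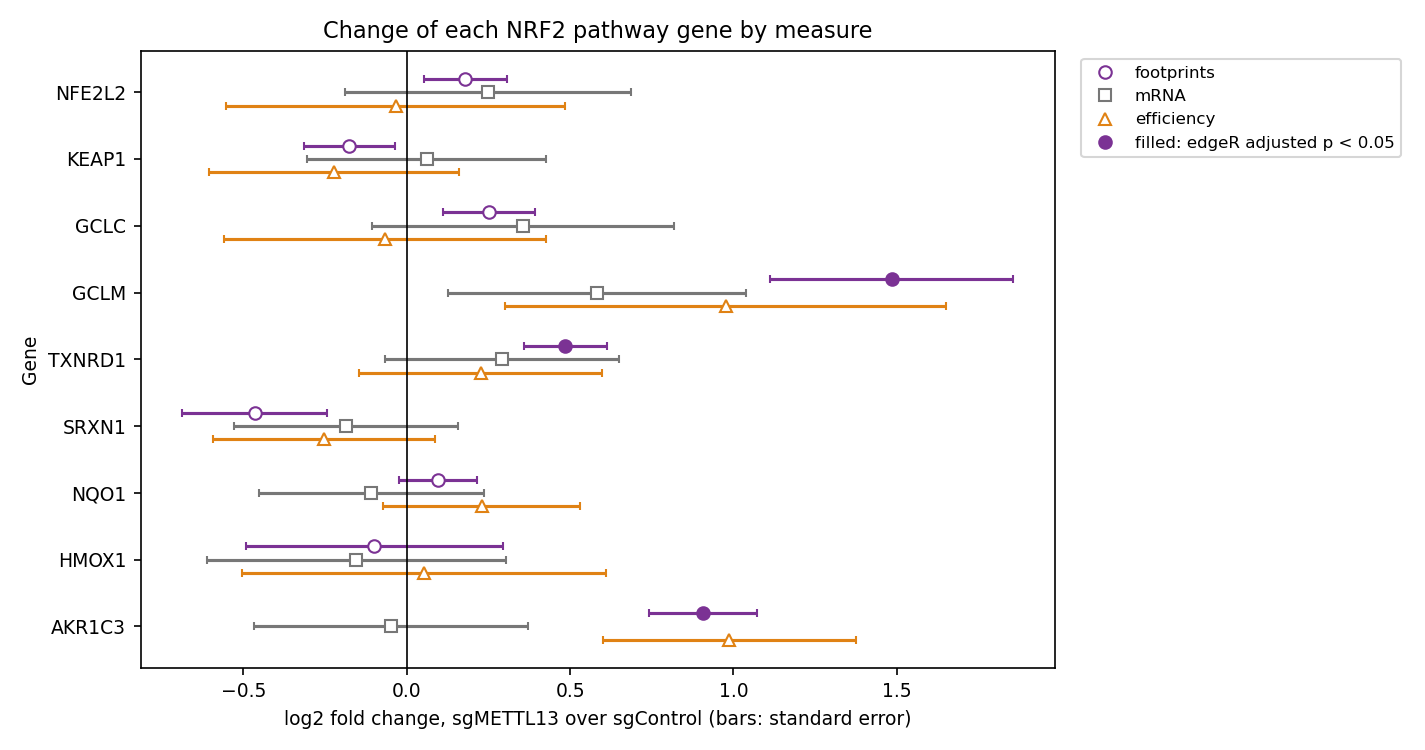
Log2 fold changes of sgMETTL13 over sgControl for the 9 genes in footprints, in mRNA and in footprints per mRNA (efficiency), with bars for the standard error and filled symbols for an edgeR adjusted p below 0.05. GCLM (1.48), AKR1C3 (0.91) and TXNRD1 (0.49) in footprints are the filled points, and the mRNA and efficiency bars are wider than the footprint bars for every gene.

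**Figure D3:**
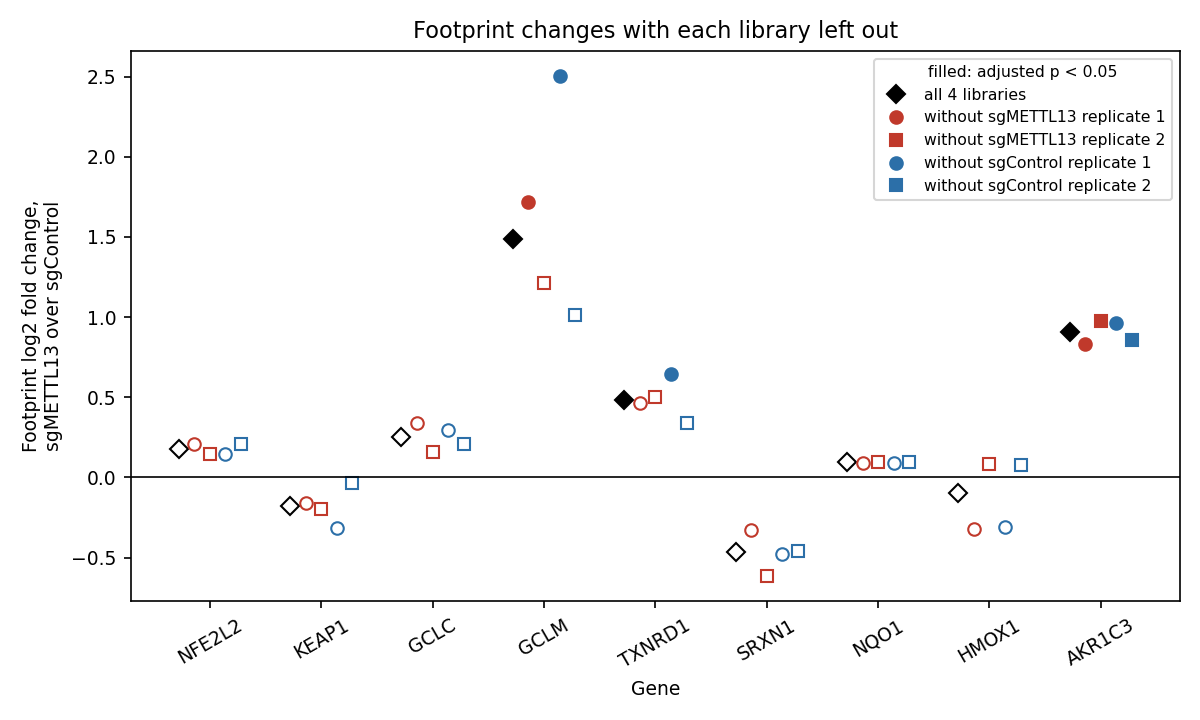
Footprint log2 fold changes of the 9 genes with all 4 footprint libraries and with each library left out, filled where the adjusted p was below 0.05. AKR1C3 stayed filled throughout, GCLM was filled without sgMETTL13 replicate 1 or sgControl replicate 1, and TXNRD1 without sgControl replicate 1.

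The mRNA comparison called none of the 9 genes and none of 12468 genes tested (0%), with 100 genes, or 0.802%, at an unadjusted p below 0.05. DESeq2 and limma voom also called 0. Within sgMETTL13, replicate 1 exceeded replicate 2 in 7 of the 9 mRNAs, and within sgControl in 6 of the 9. The difference between these replicates was 1.37 for NFE2L2, 1.13 for GCLC and 1.01 for GCLM on the log2(CPM + 1) scale, where the SD of that difference over all genes was 0.812. In sgControl the same differences were -0.01, 0.28 and 0.19, and the SD was 0.340. For each of the 9 genes but SRXN1 the sgMETTL13 replicates differed by more than the fitted mRNA change between the guides. For SRXN1 they differed by 0.08, beside a fitted change of -0.19.

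Translational efficiency, the footprint change minus the mRNA change in a model over all 8 libraries, passed for none of the 9 genes and for none of 10446 genes tested (0%), with 335 genes, or 3.21%, at an unadjusted p below 0.05. DESeq2 called 4 genes and limma voom 0, with none of the 9 among them. AKR1C3 had the smallest p of the 9, with a log2 difference of 0.99 (SE 0.386, unadjusted p = 0.0302, edgeR adjusted p = 0.998). That difference read 0.70 to 1.23 with 1 library left out. GCLM read 0.98 with an SE of 0.675, and 0.49 to 1.97 with 1 library left out. TXNRD1 read 0.23 with an SE of 0.371, and 0.013 to 0.45 with 1 library left out. Over all genes the median was -0.10. NFE2L2 at -0.03 and GCLC at -0.07 were small beside their SE of 0.519 and 0.492. Both turned positive with RLE size factors or DESeq2 (0.08 and 0.04 in each). The same held with limma voom (0.11 and 0.02) and with a replicate term in the model (0.11 and 0.02). The all-gene median moved as well, to -0.02 with RLE size factors or DESeq2. It was -0.05 with limma voom or the replicate term. KEAP1 read -0.22 (SE 0.383), SRXN1 -0.25 (SE 0.340), NQO1 0.23 (SE 0.302) and HMOX1 0.05 (SE 0.558).

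The 9 genes carried very different numbers of footprints for their mRNA. The ratio of footprint CPM to mRNA CPM had a median of 0.782 over all genes in sgMETTL13 and 0.859 in sgControl. GCLM had a ratio of 0.117 in sgMETTL13 and 0.0578 in sgControl, which put it at percentile 6.85 and percentile 2.92 of the genes. SRXN1 had 0.0762 in sgMETTL13 and 0.0924 in sgControl, at percentile 3.84 and percentile 5.40. These low places held with any 1 library left out, between percentile 1.56 and 12.0 for GCLM and between 3.59 and 6.15 for SRXN1.

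At the other end NQO1 had 2.59 footprint CPM per mRNA CPM in sgMETTL13 and 2.25 in sgControl, at percentile 87.8 and percentile 79.3, and GCLC had 1.72 in sgMETTL13 and 1.84 in sgControl, at percentile 77.2 and percentile 74.3. The subunits of glutamate-cysteine ligase thus stood far apart. AKR1C3 was at percentile 67.0 in sgMETTL13 and percentile 40.5 in sgControl. NFE2L2, KEAP1, TXNRD1 and HMOX1 lay between percentile 46.9 and percentile 70.1 under both guides. Footprints cover the coding sequence and mRNA reads the whole transcript, and transcript lengths were not used here, so the ratios are not per length.

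**Figure D4:**
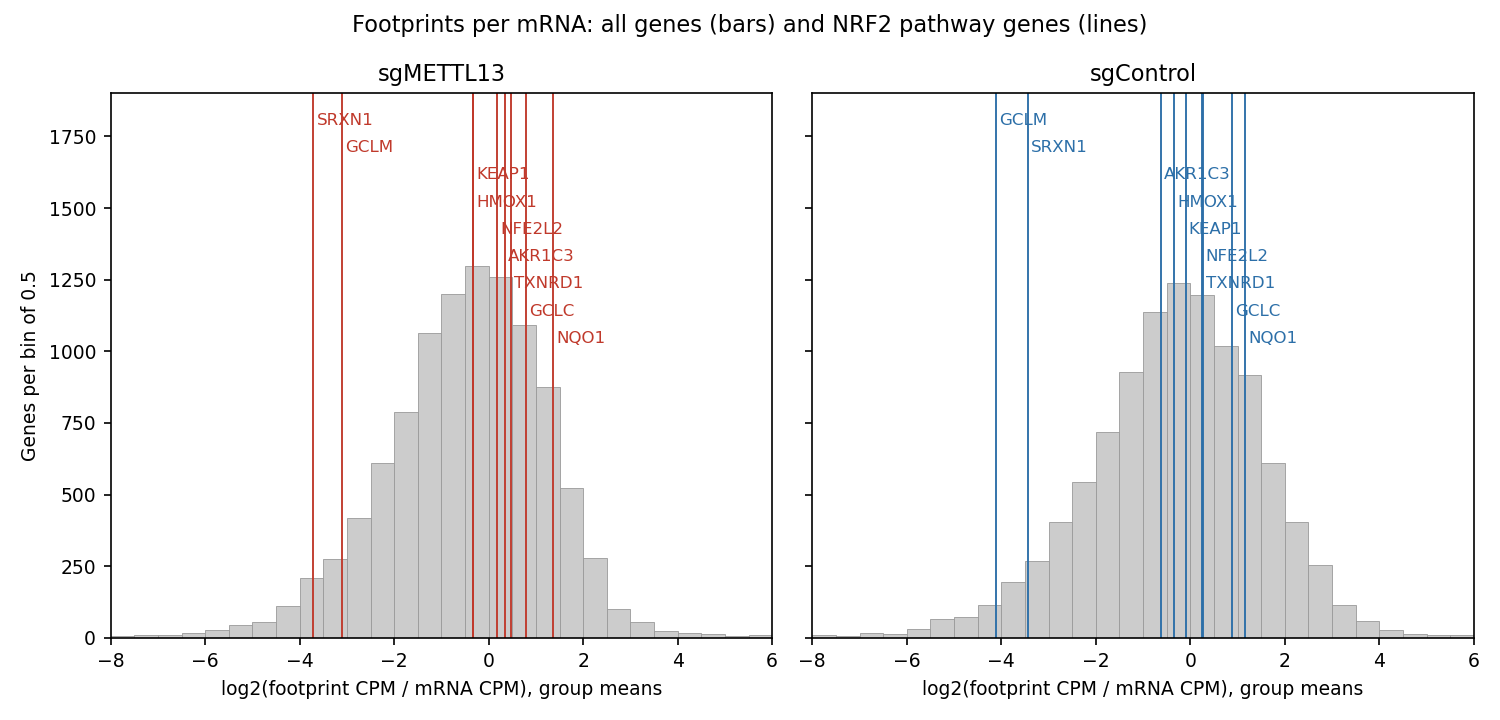
Distribution of log2(footprint CPM / mRNA CPM) over 10446 genes, from group means, in sgMETTL13 (left) and sgControl (right), with a line for each of the 9 genes. GCLM and SRXN1 stand in the left tail under both guides, and AKR1C3 has a ratio of 1.26 in sgMETTL13 and 0.649 in sgControl.

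The remaining pathway was followed through 7 lists with 72 genes, of which 65 passed the expression filter in footprints. Of these, 14 rose and 5 fell, where 8.94% of all genes rose and 12% fell, and their median log2 fold change was 0.10. The lists were chosen with earlier results of these data known, so setting them beside all genes does not test the pathway. None of the 69 listed genes tested in mRNA passed, and none of the 65 tested for efficiency. The list counts moved together with those over all genes when 1 library was left out. Without sgMETTL13 replicate 2, 5 listed genes rose and 2 fell, against 254 and 447 of all 10889 genes. Without sgControl replicate 2, 6 rose and 2 fell, against 314 and 510 of 10998. Without sgControl replicate 1, 22 rose and 7 fell, against 1404 and 1614 of 11031. DESeq2 called 14 of 65 listed genes, 11 higher and 3 lower. Over all 10714 genes it called 1371, 546 higher and 825 lower. In 1 edgeR fit over all 8 libraries 0 of 65 listed genes and 0 of all 10446 genes were called.

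Among 13 genes listed for NRF2 control, which include relatives of NFE2L2 itself, 2 rose and 1 fell in footprints. That was close to the 21% of all genes that passed, and the list median was -0.02. MAFG, a small MAF protein that pairs with NRF2 on DNA, had 18.6 and 16.9 CPM in sgMETTL13 and 31.7 and 39.2 CPM in sgControl. The log2 fold change was -0.99 (SE 0.175, edgeR adjusted p = 0.000234), with mRNA at -0.02 (SE 0.366), and it kept its call with any 1 library left out. The other small MAF genes did not pass, MAFK at -0.37 (SE 0.159) and MAFF at -0.18 (SE 0.148). BTRC, a ubiquitin ligase adaptor that acts on NRF2 independently of KEAP1, rose by 0.75 (SE 0.207, adjusted p = 0.00972). RBX1, the RING subunit of the KEAP1 ligase, rose by 0.44 (SE 0.137, adjusted p = 0.0207), while its scaffold CUL3 read -0.05 (SE 0.123). BTRC lost its call without either replicate 2 library, and RBX1 kept its own only without sgControl replicate 1.

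In the glutathione and cystine list 3 of 11 genes tested rose and 1 fell (8.94% and 12% over all genes), with a median of 0.01. SLC7A11, the cystine transporter that supplies glutathione synthesis, had 81.5 and 99.9 footprint CPM in sgMETTL13 and 49.2 and 52.5 CPM in sgControl, where the log2 fold change was 0.84 (SE 0.147, edgeR adjusted p = 0.000225). Its mRNA had 169 and 44.4 CPM in sgMETTL13 and 45.6 and 38.4 CPM in sgControl, where replicate 2 of sgMETTL13 lay within the control range, and the log2 fold change of 1.34 (SE 0.542) did not pass. MGST1, a membrane-bound glutathione transferase, rose by 0.80 (SE 0.167). GSTP1, a cytosolic glutathione transferase, fell to 2101 and 1834 CPM in sgMETTL13, against 2846 and 3826 CPM in sgControl, a log2 fold change of -0.76 (SE 0.129, adjusted p = 0.000142). ABCC4, an export pump, rose by 0.54 (SE 0.195, adjusted p = 0.0472), a call that held only without sgControl replicate 1 when libraries were left out in turn. SLC7A11, MGST1 and GSTP1 kept theirs each time, but MGST1 read 0.48 without sgControl replicate 2 and 1.24 without sgControl replicate 1.

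Thioredoxin and peroxiredoxin genes gave 4 of 11 that rose and 2 that fell (8.94% and 12% over all genes), with a median of 0.25. PRDX1, a peroxide-reducing peroxiredoxin, had 135 and 193 CPM in sgMETTL13 and 105 and 83.4 CPM in sgControl, which was 0.80 in log2 terms (SE 0.154, adjusted p = 0.000525 by edgeR). TXNIP, which binds and inhibits thioredoxin, rose by 0.63 (SE 0.131), and TXN2, the mitochondrial thioredoxin, by 0.47 (SE 0.135). SESN2, a stress-induced sestrin, had -0.64 (SE 0.206, adjusted p = 0.0264). The remaining calls in this list were PRDX2, which rose, and TXNRD2, the mitochondrial thioredoxin reductase, which fell with -0.50 (SE 0.168), where TXNRD1 had 0.49. TXNIP kept its call with any library left out, and PRDX1 lost its own without sgMETTL13 replicate 2. TXN2, PRDX2 and TXNRD2 kept theirs only without sgControl replicate 1, and SESN2 lost its own in every case.

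NADPH, the electron source of both systems, is supplied by several cytosolic enzymes. None of 7 genes of this list passed in footprints (edgeR), where 21% of all genes tested passed, and the median was 0.16. IDH1, an isocitrate dehydrogenase, read 0.36 (SE 0.138), TALDO1, transaldolase, 0.30 (SE 0.136), and ME1, malic enzyme, 0.16 (SE 0.132).

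Of 13 detoxification genes and aldo-keto reductases tested, 2 rose and 1 fell, close to the 21% of all genes that passed, with a median of -0.07. ALDH3A1, an aldehyde dehydrogenase, had 74.8 and 74.7 CPM in sgMETTL13 and 48.03 and 36.8 CPM in sgControl, which was 0.81 in log2 terms (SE 0.153, adjusted p = 0.000448 by edgeR). PTGR1, which reduces prostaglandins and lipid aldehydes, rose by 0.54 (SE 0.124). AKR1A1, an aldo-keto reductase outside the AKR1C cluster, had -0.55 (SE 0.136). UGDH, which makes UDP-glucuronic acid, read 0.36 (SE 0.149) and did not pass. ALDH3A1 kept its call with any library left out, PTGR1 lost its own without sgMETTL13 replicate 1, and AKR1A1 without either replicate 2 library.

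Of 5 heme and iron genes tested 1 rose, FTL, the ferritin light chain, by 0.53 (SE 0.192, edgeR adjusted p = 0.0474), where 8.94% of all genes rose, and the list median was 0.32. FTH1, the ferritin heavy chain, read 0.41 (SE 0.165), BLVRA, a biliverdin reductase, -0.33 (SE 0.139), and BLVRB 0.32 (SE 0.226). FTL and FTH1 have many processed pseudogenes that can share short reads. Of 5 other superoxide and peroxide enzymes SOD2, the mitochondrial superoxide dismutase, rose by 0.67 (SE 0.177, adjusted p = 0.00738) and SOD1, the cytosolic form, by 0.45 (SE 0.128, adjusted p = 0.0123), again beside 8.94% of all genes. CAT, catalase, read 0.35 (SE 0.160) and GPX1, a glutathione peroxidase, 0.33 (SE 0.318). FTL, SOD1 and SOD2 each lost their calls without either replicate 2 library.

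**Figure D5:**
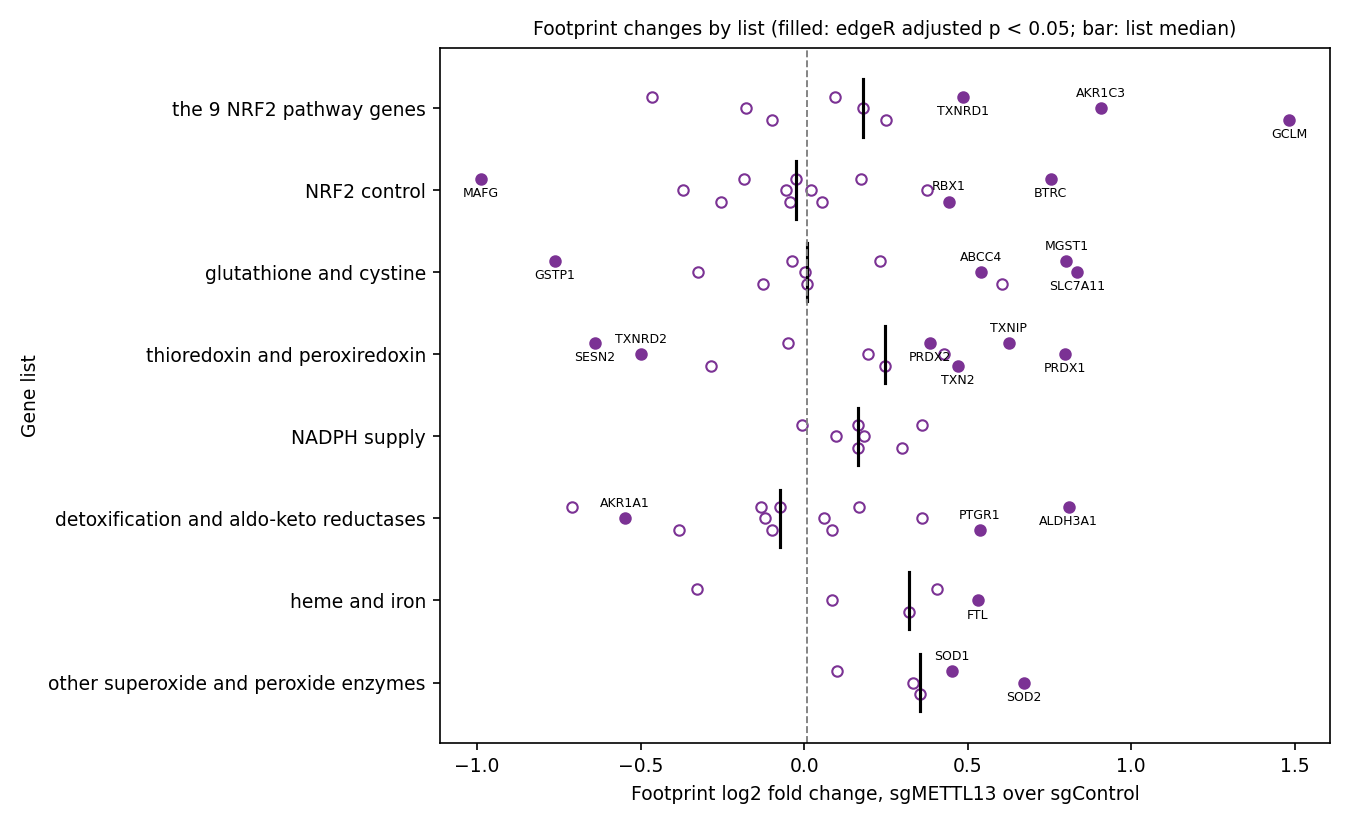
Footprint log2 fold changes of sgMETTL13 over sgControl for the 9 genes (top row) and the 7 pathway lists, with each point a gene, filled points past an edgeR adjusted p of 0.05, a bar at each list's median and a dashed line at the median of all genes (0.01). Called points fall on both sides in 4 of the lists, from MAFG at -0.99 to SLC7A11 at 0.84.

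The genes whose levels moved most like those of GCLM over the 8 libraries, each assay centred on its own mean, were TMEM9B, PUS10 and PLK2, with Pearson correlations of 0.990, 0.990 and 0.983. For AKR1C3 they were ZCCHC17, FUCA1 and SVEP1, at 0.964, 0.960 and 0.957. These describe likeness among 10446 genes over libraries that share the same guides and depth.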

How the data were processed

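RNA-seq (stranded poly(A) libraries) and ribosome profiling (ribosomes pulled down with a puromycin analog) were made from T3M4 lysates, per the labels' protocols. The authors deposited 1 table of raw counts, with a row per gene symbol and a column per library. Per the submitters' processing notes, which give no order, build hg38, UMI-tools, Bowtie 1.2.2, HISAT2 2.0.4, cutadapt 1.18 and featureCounts were used. The annotation, the strand setting, the handling of reads that match several places and whether footprints were counted as unique molecules are not given in the sources used here, so genes with close copies or overlapping antisense genes are uncertain.

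The 4 libraries of each assay were fitted in edgeR 4.0.16 under R 4.3.3 (quasi-likelihood F test, TMM factors, filterByExpr). Efficiency was the interaction term over all 8 libraries, for genes kept in each assay. P-values were Benjamini-Hochberg adjusted over all genes tested. An adjusted p below 0.05 counted as passed. SE is the absolute log2 fold change divided by the root of the F statistic. edgeR's common coefficient of variation was 0.0992 in footprints, 0.337 in mRNA and 0.261 in the joint model. A count of 0, which allows 3 counts, is at most 0.513 CPM in the shallowest footprint library and 0.144 CPM in the shallowest RNA library, for counting error only. Alternatives were DESeq2 1.42.0, limma 3.58.1 voom, other size factors, no filter, a replicate block, 1 fit over all 8 libraries, and each library left out. The fits were tested on simulated counts.

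Always named were the 9 genes and METTL13, then up to 4 genes per list by smallest footprint p (a gene this names is not reported here), and the 3 genes most correlated with GCLM and with AKR1C3 in log2(CPM + 1). Members and lists were chosen with earlier results of these data known. PRDX2, TXNRD2, CUL3, MAFF, AKR1C1, AKR1C2, AKR1C4, COL1A1 and LUM stand outside that rule and were named after their values were seen. Protein sequences were not used here.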

Additional observations from a re-analysis of the deposited data

How the results depend on the processing

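The 9 genes gave 3 footprint calls with edgeR and with other size factors, no filter, limma voom or a replicate block, 2 with DESeq2, and 1 to 3 with a library left out. In 1 fit over all 8 libraries 0 of the 9 passed, as did 0 of all genes and 0 pathway genes, with 904 of all genes at an unadjusted p below 0.05. There the common coefficient of variation was 0.261 against 0.0992. All-gene footprint calls numbered 2245, 1371 with DESeq2 and 701 to 3018 with a library left out, and the 19 pathway calls became 7 to 29. In mRNA the calls with a library left out ran from 0 to 2 of the 9 genes and from 0 to 2509 of all genes, and for efficiency from 0 to 1215 of all genes, with 4 by DESeq2.

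Replicate numbers were shared across guides, but the labels do not say that they pair the libraries. The correlation of the replicate differences between guides was -0.212 in footprints and 0.425 in mRNA. With the replicate block footprint calls numbered 1729 over all genes, 3 of the 9 and 13 pathway genes, and mRNA and efficiency calls stayed at 0. A crossed block, added after seeing the data, gave 3220, 3 and 29.

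Signs that changed belonged to uncalled values. NFE2L2 efficiency was 0.081 with RLE size factors, 0.081 with DESeq2, 0.11 with limma voom and 0.11 with the replicate block. GCLC efficiency was 0.040, 0.040, 0.021 and 0.020 in the same settings. With libraries left out, mRNA ranged from -0.53 to 0.78 for NFE2L2, -0.27 to 0.40 for KEAP1, -0.27 to 0.82 for GCLC, -0.23 to 0.054 for NQO1, -0.52 to 0.21 for HMOX1 and -0.27 to 0.22 for AKR1C3. HMOX1 footprints ranged from -0.32 to 0.083. Efficiency ranged from -0.49 to 0.72 for NFE2L2, -0.57 to 0.21 for KEAP1, -0.46 to 0.53 for GCLC and -0.32 to 0.52 for HMOX1. Other uncalled values kept their sign but moved by over 1.5 times. Footprints ranged from 0.16 to 0.34 for GCLC and -0.62 to -0.33 for SRXN1, and SRXN1 mRNA from -0.26 to -0.095. Efficiency ranged from -0.41 to -0.11 for SRXN1, 0.15 to 0.33 for NQO1 and 0.70 to 1.23 for AKR1C3. The causes were not tested. Depth limits HMOX1 and GCLM most, with at most 20 and 53 footprints in a library.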
